A study of Mus musculus with 28 samples.

Results

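Regulatory T (Treg) cells treated in culture with piericidin were compared with Treg cells treated with 3-nitropropionic acid (3-NPA), that is, inhibition of respiratory complex I was set against inhibition of complex II. The comparison used 6 of the 28 RNA-seq libraries of the series, 3 for each inhibitor, chosen by their labels, and covered every gene with enough counts to be tested. All cells were CD4+ YFP-Foxp3+ CD25+ cells of C57BL/6NJ mice aged 3 weeks with the RISP WT genotype, so the gene for the Rieske iron-sulfur protein of complex III was not deleted in any of them. One group received piericidin at 1 µM and the other 3-NPA at 500 µM. The same experiment held 3 untreated libraries and 3 libraries of cells given antimycin A, a complex III inhibitor, at 1 µM, and these served as the reference level and helped to estimate the spread between libraries. The labels give neither the time of exposure nor whether the 3 libraries of a group came from separate animals, so the p-values measure the spread between libraries, which may be technical.

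Complex I oxidises NADH and complex II oxidises succinate, and both pass their electrons to ubiquinone and from there to complex III. Piericidin occupies the ubiquinone site of complex I, whereas 3-NPA inactivates succinate dehydrogenase, the enzyme of the tricarboxylic acid cycle that is complex II. Complex I pumps protons and regenerates NAD+, while complex II pumps none, so the inhibitors leave different redox couples reduced. Treg cells, which restrain other lymphocytes under the control of the transcription factor Foxp3, are known to rely on mitochondrial respiration for their suppressive function.

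The 12 libraries held 2.71 to 3.45 M counts each, and a gene with few counts is therefore measured with a wide error. The labelled cell type was checked against its markers, and the 6 Treg markers summed to 7269 to 7392 CPM (the count scaled by the total of its library) with piericidin and to 7013 to 7336 CPM with 3-NPA. Ms4a1 of B cells, Ncr1 of natural killer cells, Itgax of dendritic cells, and Cd14, S100a8 and S100a9 of myeloid cells were at 0 in all 6 libraries. Other markers were present at low levels in all 6, among them Csf1r and Cd68 of myeloid cells and Cd8b1 of CD8 T cells. The 12 myeloid markers summed to 18.3 to 22.5 CPM with piericidin and 15.9 to 19.2 CPM with 3-NPA, and the 9 CD8 and natural killer cell markers to 8.40 to 15.6 and 5.54 to 19.0 CPM. The 10 B cell markers summed to 278 to 294 CPM with piericidin and 322 to 467 CPM with 3-NPA, nearly all of it Ighm, and the 9 dendritic cell markers to 38.7 to 56.6 and 58.4 to 83.3 CPM, most of it Cd74; their part in the results below was not tested. Replicate 1 of piericidin and replicate 2 of 3-NPA stood apart from their groups on the second principal component.

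Of 11689 genes tested, 502 (4.29%) were called, meaning that edgeR's quasi-likelihood test gave an adjusted p under 0.05. Of these, 218 (1.87%) were higher with piericidin and 284 (2.43%) were higher with 3-NPA, and 35 and 76 of them differed by more than 2-fold. The median called gene differed 1.55-fold, and the CPM of the 2 groups did not overlap for 488 of the 502. Over all genes tested, the piericidin libraries lay wholly above the 3-NPA libraries for 10% and wholly below for 12.0%. Against the untreated libraries, 1584 genes (13.6%) were called with piericidin and 377 (3.23%) with 3-NPA. These comparisons share libraries with the direct one and are given only as levels. The genes called higher with piericidin had a median log2 change against untreated of 0.44 with piericidin and -0.12 with 3-NPA; those called higher with 3-NPA had medians of -0.65 and 0.01. The count of 502 depended on single libraries: it was 230 without 3-NPA 1, 231 without piericidin 3, 287 without 3-NPA 3 and 302 without piericidin 2. A call given below with its standard error held when each of the 6 libraries was left out in turn, unless a library is named beside it.

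**Figure D1:**
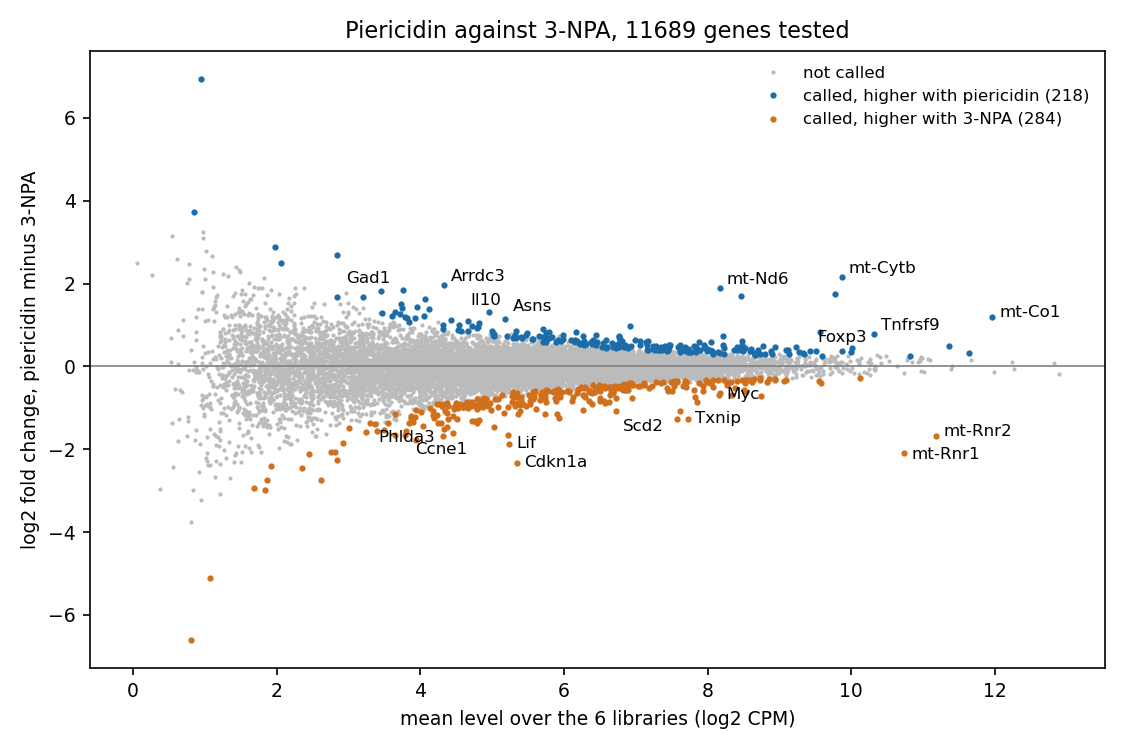
Each point is a gene, with its mean level over the 6 libraries in log2 CPM on the x axis and its log2 fold change, piericidin minus 3-NPA, on the y axis; coloured points are the 218 genes called higher with piericidin and the 284 called higher with 3-NPA. The mitochondrially encoded mt-Cytb (2.16) and mt-Rnr1 (-2.09) lie far from zero on the right of the plot, where most genes are close to it.

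RNA from mitochondrial DNA differed between the inhibitors in both directions. Mitochondrial DNA encodes the ribosomal RNAs of the organelle and the core subunits of complexes I, III, IV and ATP synthase; the plus strand is copied into one long precursor, starting ahead of the ribosomal RNA genes, which is cut at the transfer RNAs. The transcript of mt-Cytb, the cytochrome b of complex III, stood at 2091, 1700 and 2147 CPM with piericidin and at 516, 459 and 373 CPM with 3-NPA. Every piericidin library was several times above every 3-NPA library, a log2 difference of 2.16 ± 0.12 (SE, n = 3 per group, edgeR adjusted p = 1.04e-16). The small ribosomal RNA mt-Rnr1 went the other way, with 1026, 711 and 751 CPM under piericidin and 3278, 4151 and 3309 CPM under 3-NPA. The groups again did not overlap, and the log2 difference was -2.09 ± 0.11 (SE, edgeR adjusted p = 2.68e-17). The large ribosomal RNA mt-Rnr2 differed by -1.69 ± 0.09.

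Among the ribosomal RNAs and mRNAs of the plus strand, the difference rose from gene to gene along the mitochondrial genome. After the ribosomal RNAs came mt-Nd1 with 0.20 ± 0.10 (edgeR adjusted p = 0.30, not called), mt-Nd2 with 0.84 ± 0.11, mt-Co1 with 1.20 ± 0.10, mt-Nd4 with 1.69 ± 0.15, mt-Nd5 with 1.76 ± 0.11 and mt-Cytb with 2.16, all as log2 differences in the order of the plus strand. mt-Nd6, the one mRNA of the minus strand, was higher with piericidin by 1.89 ± 0.14. Thus 6 of the 7 mitochondrial mRNAs tested were called higher and none lower, beside 1.87% of all genes called higher. Their median was 1.69 against 0.00 over all genes, and the 6 calls held without each library. The neighbours mt-Nd4 and mt-Nd5 do not differ beyond their standard errors. Whether counting used strand is not given in the sources used here, so mt-Nd6 cannot be told apart from RNA of the opposite strand. The other 6 protein genes of the plus strand, mt-Co2, mt-Atp8, mt-Atp6, mt-Co3, mt-Nd3 and mt-Nd4l, held at most 2 counts over all 12 libraries and give no value. Of the mitochondrial transfer RNAs, 7 were tested and none was called by edgeR, though mt-Ty and mt-Tp had an unadjusted p under 0.05; they had few counts, wide errors and no such order, for example mt-Ty with 3.26 ± 1.19 ahead of mt-Co1 and mt-Tt with 0.74 ± 0.83 after mt-Cytb.

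Set against the untreated cells, each mitochondrial ribosomal RNA and mRNA tested changed more with 3-NPA than with piericidin, though not in strict gene order. With 3-NPA the log2 change was 2.20 for mt-Rnr1 and 1.36 for mt-Rnr2, then -0.41 for mt-Nd1, -1.35 for mt-Nd2, -0.69 for mt-Co1, -2.19 for mt-Nd4, -1.92 for mt-Nd5, -2.02 for mt-Nd6 and -2.59 for mt-Cytb. With piericidin the same genes ranged from -0.51 for mt-Nd2 to 0.51 for mt-Co1. Both of these were called by edgeR, as were mt-Nd4 (-0.50), mt-Cytb (-0.44) and mt-Rnr2 (-0.33). The direct difference thus also holds changes with piericidin. The counts of the 2 ribosomal RNAs divided by those of the 7 mRNAs in the same library were 0.162, 0.156 and 0.138 with piericidin, 0.174, 0.156 and 0.175 in untreated cells, and 1.06, 1.35 and 1.24 with 3-NPA. This ratio within a library does not depend on how libraries are scaled against each other, and the 3-NPA libraries lay far above the other 6. The share of all counts from mitochondrial DNA was alike, 1.36% to 1.77% with piericidin and 1.31% to 1.56% with 3-NPA. Libraries were made from poly(A)-selected RNA, so a change in the tailing of these RNAs and a change in their amount cannot be told apart.

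**Figure D2:**
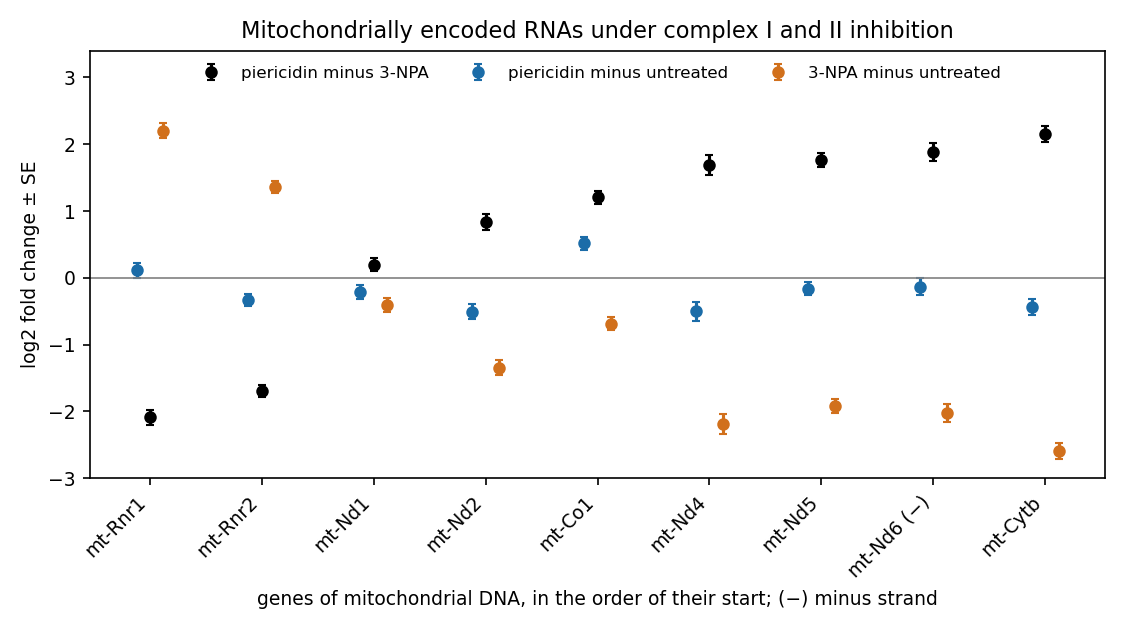
Log2 fold changes with their standard errors (bars) for the 2 ribosomal RNAs and 7 mRNAs of mitochondrial DNA with counts, in the order of their start. The difference between piericidin and 3-NPA (black) climbs from -2.09 at mt-Rnr1 to 2.16 at mt-Cytb, while piericidin against untreated (blue) stays between -0.51 and 0.51.

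The nuclear genes of respiratory complexes I to III differed little. None of the 36 complex I subunits, the 8 genes of complex II or the 9 subunits of complex III was called in either direction by edgeR, with median log2 differences of -0.02, -0.03 and -0.17. At an unadjusted p under 0.05 there were 4, 2 and 1, and DESeq2 called 1, 0 and 0 of them. The medians of complexes I and II lie near 0 and changed sign when single libraries were left out. Sdha, the flavoprotein subunit of complex II, had 258, 253 and 268 CPM with piericidin and 327, 273 and 317 CPM with 3-NPA, a log2 difference of -0.22 ± 0.09 (SE) with an edgeR adjusted p of 0.20. Ndufs1, which carries iron-sulfur clusters of complex I, differed by -0.38 ± 0.13 with an adjusted p of 0.085 by edgeR and 0.024 by DESeq2. In ATP synthase 13 of 14 subunits had a negative difference. There 3 (21.4%) were called lower with piericidin, beside 2.43% of all genes, and 11 were not called. They were Atp5k (-0.73), Atp5o (-0.50) and Atp5b (-0.28), and only 1 of the list was called without piericidin 2, piericidin 3, 3-NPA 1 or 3-NPA 2. In complex IV and its substrate, 13 genes with a median of -0.22, only Cycs, cytochrome c, was called. It was lower with piericidin by 0.98 ± 0.25 on the log2 scale, a call lost without piericidin 2, piericidin 3 or 3-NPA 1 (edgeR adjusted p up to 0.078). Against untreated cells, 7 of the 14 ATP synthase genes and 6 of the 13 complex IV genes were lower with piericidin. The background was 7.93% of all genes. With 3-NPA none of either list was called. Of 24 genes that copy, transcribe or degrade mitochondrial nucleic acids, 1 was called, or 4.17% beside 4.29% over all genes. Fastkd5, a mitochondrial RNA processing factor, had 2.91, 4.02 and 6.45 CPM with piericidin and 8.97, 17.7 and 12.2 CPM with 3-NPA. Its call was lost without piericidin 1, piericidin 2, 3-NPA 2 or 3-NPA 3 (edgeR adjusted p up to 0.19). Of 14 mitochondrial chaperones and proteases, 1 was called (7.14%). Hspd1, the HSP60 chaperonin, was lower with piericidin, by 0.52 on the log2 scale.

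Of 23 target genes of p53, the tumour suppressor that responds to DNA damage and other stress, 6 were higher with 3-NPA, none was higher with piericidin and 17 were not called. Over all genes, 2.43% were called higher with 3-NPA and 1.87% higher with piericidin. Cdkn1a (chr17:29090979-29100722, mm10), which encodes the cell cycle inhibitor p21, had 19.6, 14.6 and 19.0 CPM with piericidin and 96.7, 92.0 and 83.6 CPM with 3-NPA. The 3-NPA libraries all lay far above the highest piericidin library, with a log2 difference of -2.33 ± 0.20 (SE, edgeR adjusted p = 7.79e-11). The untreated libraries lay between without overlap, at 20.2, 30.1 and 37.1 CPM, so that the log2 change against them was 1.60 with 3-NPA and -0.73 with piericidin. Phlda3, an inhibitor of Akt signalling, had 7.99, 10.6 and 13.5 CPM with piericidin and 36.2, 35.5 and 32.8 CPM with 3-NPA. The groups did not overlap, with a log2 difference of -1.67 ± 0.26. Gtse1, which shuttles p53 out of the nucleus, differed by -1.32 ± 0.23, and Bax, the effector of mitochondrial outer membrane permeability, by -0.77 ± 0.12. With Zmat3 (-0.84) and Ccng1 (-0.49), named after their values were seen, these make up the 6. The list's median was -0.40, against 0.00 over all genes, and 6 or 7 were called when any library was left out. Against untreated cells, 4 of the 23 were higher and none lower with 3-NPA, where 1.35% of all genes were called higher. With piericidin 2 were higher and 5 lower, where 5.62% and 7.93% of all genes were. Bax changed by -0.53 with piericidin, which was called, and by 0.24 with 3-NPA, which was not. Mdm2, the p53 ligase, differed by -0.08 and Trp53 itself by -0.15, and neither was called. Bcl2l11, the BH3-only protein BIM, went the other way: 121, 92.0 and 127 CPM with piericidin, 69.4, 59.5 and 73.4 CPM with 3-NPA, a log2 difference of 0.76 ± 0.15.

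Many genes of cell division were lower with piericidin than with 3-NPA. Ccna2, cyclin A2, stood at 46.9, 33.2 and 37.5 CPM with piericidin, at 119, 81.6 and 83.6 CPM with 3-NPA and at 167, 146 and 141 CPM in untreated cells. The 3 groups did not overlap, and piericidin was below 3-NPA by a log2 difference of -1.26 ± 0.21 (SE, edgeR adjusted p = 0.00023). Of 30 genes of mitosis and the G2/M phase, 13 were lower with piericidin and 1 was higher, with a median of -0.91. Over all genes, 2.43% were called lower and 1.87% higher. The count of 13 fell to 7 without 3-NPA 1 and to 8 without piericidin 3. Among them, Ube2c, which charges the anaphase-promoting complex with ubiquitin, differed by -1.60 ± 0.31, Nusap1, a spindle protein, by -1.29 ± 0.24 and Bub1b, a spindle checkpoint kinase, by -1.07 ± 0.19. Ccnb1, cyclin B1, differed by -1.65 ± 0.36, but its adjusted p was 0.065 without 3-NPA 1. Smc4, the condensin subunit, was the exception, with 1170, 1200 and 1230 CPM under piericidin and 953, 830 and 890 CPM under 3-NPA, a log2 difference of 0.45 ± 0.07.

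Among DNA replication genes the calls had the same direction. Of 35 genes of S phase, 10 were lower with piericidin, none was higher and 25 were not called, with a median of -0.41. The background was 2.43% of all genes called lower with piericidin than with 3-NPA. The count of 10 was 3 without piericidin 3 and 4 without 3-NPA 1 or 3-NPA 3. Mcm10, which loads the replicative polymerase, had 14.9, 14.2 and 13.5 CPM with piericidin, 39.4, 30.7 and 33.4 CPM with 3-NPA and 63.2, 88.5 and 54.7 CPM in untreated cells. No library of one group overlapped another, and piericidin and 3-NPA differed by -1.26 ± 0.23 on the log2 scale. Ccne1, cyclin E1, which opens S phase, differed by -1.52 ± 0.27. Against the untreated libraries, 27 of 30 G2/M genes and 32 of 35 S phase genes were lower with piericidin, with medians of -1.46 and -0.95 and a background of 7.93% of all genes called lower. With 3-NPA these were 7 of 30 and 13 of 35, with medians of -0.61 and -0.53 and a background of 1.87%.

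**Figure D3:**
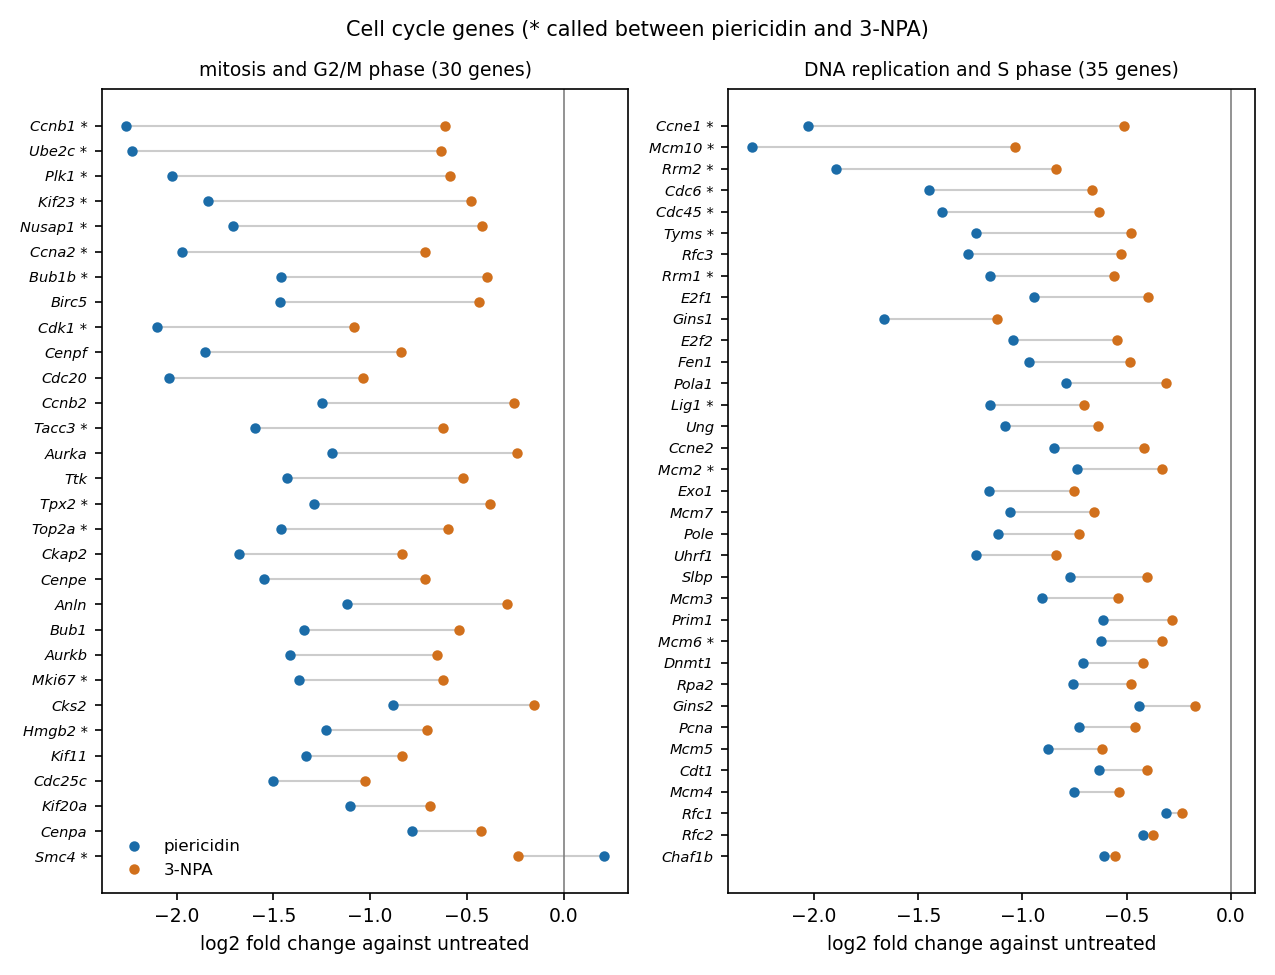
Log2 fold change against the untreated libraries with piericidin (blue) and 3-NPA (orange) for the 30 G2/M and 35 S phase genes; a grey line joins the values of a gene and an asterisk marks a call between the inhibitors. Piericidin lies to the left of 3-NPA for every gene but Smc4, and the untreated libraries are shared by both values.

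The promoters of the G2/M genes are shown because many such genes carry a pair of known elements, the CHR, bound by the MuvB complexes, and the CCAAT box, bound by NF-Y. Windows of 300 bases around the start of each gene were taken from RefSeq (GRCm38.p6) and searched on both strands for the CHR, written as TTTGAA or TTCGAA, and for CCAAT. Of all 32851 such windows, 19.2% held a CHR and 37.4% a CCAAT. Of the 13 G2/M genes lower with piericidin, 11 had a window, of which 8 held a CHR and 9 a CCAAT; of the 24 tested G2/M genes with a window, whether called or not, 18 and 20 did. Where a gene had several windows, a match in any of them counted. The shares over all windows count each window singly, so the 2 are not in the same unit. A match is a description of the letters and not a measured site. Stretches are printed for 3 of these G2/M genes, picked among called genes with a match. Each runs from 250 bases before the start to 10 bases after it, with matches in capitals. For a gene with several windows, the one with the most matches was printed. The Ube2c stretch holds 1 CHR and 6 CCAAT, 2 of which overlap each other, while that of Bub1b holds 1 of each. That of Ccnb1 holds 2 CCAAT and neither searched form of the CHR. Other forms of the CHR were not searched.

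Bub1b, chr2:118597961-118598220, plus strand: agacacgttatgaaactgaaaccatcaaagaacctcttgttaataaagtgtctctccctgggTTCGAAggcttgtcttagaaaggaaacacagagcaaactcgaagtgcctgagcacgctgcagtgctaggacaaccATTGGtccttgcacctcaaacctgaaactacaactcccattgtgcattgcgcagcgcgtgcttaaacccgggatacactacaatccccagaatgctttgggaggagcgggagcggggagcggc

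Ube2c, chr2:164769679-164769938, plus strand: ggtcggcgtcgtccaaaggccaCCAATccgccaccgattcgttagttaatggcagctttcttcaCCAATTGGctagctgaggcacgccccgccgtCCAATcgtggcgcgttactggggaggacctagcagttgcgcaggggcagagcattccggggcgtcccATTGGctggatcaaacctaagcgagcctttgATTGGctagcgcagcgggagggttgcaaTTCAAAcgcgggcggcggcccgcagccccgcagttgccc

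Ccnb1, chr13:100786477-100786736, minus strand: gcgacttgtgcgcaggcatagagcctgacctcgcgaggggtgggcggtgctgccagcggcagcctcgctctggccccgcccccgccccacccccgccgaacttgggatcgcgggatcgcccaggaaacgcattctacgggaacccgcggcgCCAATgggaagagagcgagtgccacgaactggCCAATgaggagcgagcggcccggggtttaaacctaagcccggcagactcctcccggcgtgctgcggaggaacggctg

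Genes that supply nucleotides were also among those lower with piericidin. Of 16 genes of pyrimidine and deoxynucleotide synthesis, 8 were lower, none was higher and 8 were not called, with a median of -0.49. Over all genes, 2.43% were called lower. The count lower was 2 without piericidin 3, 4 without 3-NPA 1 and 5 without 3-NPA 3. Rrm2, the regulated subunit of ribonucleotide reductase, had 53.4, 63.9 and 42.7 CPM with piericidin and 108, 113 and 114 CPM with 3-NPA. The groups did not overlap, at a log2 difference of -1.05 ± 0.19. Rrm1, another gene of this enzyme, is among the called S phase genes, so the 2 themes are not fully separate. Cad and Umps, which make the pyrimidine ring on either side of the ubiquinone-linked enzyme Dhodh, differed by -0.45 and -0.58; Cad was not called without 3-NPA 1 or 3-NPA 3, nor Umps without piericidin 3 or 3-NPA 1 (adjusted p up to 0.079 and 0.081). Dhodh differed by -0.17 and was not called. Of 12 enzymes of purine synthesis only Paics was called, or 8.33% beside 4.29% over all genes. Its call was lost without piericidin 2, piericidin 3, 3-NPA 1 or 3-NPA 3 (edgeR adjusted p up to 0.24).

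Myc, the transcription factor that drives growth and ribosome production, had 246, 190 and 235 CPM with piericidin and 393, 337 and 371 CPM with 3-NPA. Untreated cells, at 349, 326 and 364 CPM, overlapped 3-NPA and not piericidin, and the inhibitors differed by -0.70 ± 0.10 on the log2 scale (edgeR adjusted p = 1.76e-05). Of 29 genes of Myc and nucleolar ribosome assembly, 4 were lower with piericidin and none higher, with a median of -0.22. Over all genes, 2.43% were called lower. Of the list, 2 were called without piericidin 2 or 3-NPA 1. Nolc1, a nucleolar chaperone, differed by -0.47 ± 0.10. None of the 54 cytosolic ribosomal proteins was called by edgeR, with a median of 0.02 that changed sign without piericidin 1, 3-NPA 1 or 3-NPA 3; 7 had an unadjusted p under 0.05 and DESeq2 called 1. Of 17 cytosolic chaperones, 3 were lower with piericidin and none higher, again beside 2.43% of all genes called lower. The count was 6 without piericidin 1 but 1 without piericidin 2, piericidin 3, 3-NPA 1 or 3-NPA 3. Fkbp4, a cochaperone of HSP90, differed by -0.58 ± 0.11.

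Part of the integrated stress response was higher with piericidin. In this response, kinases that sense amino acid shortage or mitochondrial stress raise the translation of ATF4, which turns on amino acid synthesis and import. Asns (chr6:7675169-7693254, mm10), the asparagine synthetase, had 55.6, 43.8 and 60.8 CPM with piericidin, 33.1, 22.2 and 18.9 CPM with 3-NPA and 20.9, 23.9 and 19.6 CPM in untreated cells. All 3 piericidin libraries lay above all others of these groups, with a log2 difference from 3-NPA of 1.13 ± 0.22 (SE, edgeR adjusted p = 0.0011). Slc1a4, an importer of alanine, serine and cysteine, had 18.9, 15.3 and 27.3 CPM with piericidin and 2.42, 0 and 6.67 CPM with 3-NPA. The groups did not overlap; the log2 difference of 2.69 ± 0.52 rests on few counts and was 4.01 without 3-NPA 3. Of 30 genes of the list, 9 were higher with piericidin, none was lower and 21 were not called, with a median of 0.38 beside 0.00 over all genes. The background was 1.87% of all genes called higher with piericidin than with 3-NPA. Against untreated cells, 9 were higher and 1 was lower with piericidin, where 5.62% of all genes were called higher, and none was higher and 4 were lower with 3-NPA, where 1.35% were called higher. The count was 2 without piericidin 3, 4 without 3-NPA 3, and 5 without piericidin 1 or 3-NPA 1.

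Atf4 itself had 204, 228 and 246 CPM with piericidin and 145, 183 and 164 CPM with 3-NPA. Untreated cells, at 204, 201 and 221 CPM, overlapped piericidin, and 3-NPA lay below both. The log2 difference between the inhibitors was 0.48 ± 0.10, with an adjusted p of 0.053 without piericidin 3 and 0.066 without 3-NPA 1. Gpt2, the mitochondrial alanine transaminase, had 25.1, 22.6 and 27.6 CPM with piericidin and 12.1, 12.2 and 4.35 CPM with 3-NPA, and its adjusted p was 0.097 without piericidin 3 and 0.16 without 3-NPA 3. Pycr1, the last enzyme of proline synthesis, had 10.9, 5.48 and 8.90 CPM with piericidin and 1.38, 1.48 and 0.580 CPM with 3-NPA. Those groups did not overlap, yet the call was lost without any of the 6 libraries (adjusted p up to 0.16). Trib3 and Ddit3, which respond to stronger stress, differed by 0.10 and 0.48 and were not called. Chac1 had few counts and differed by 1.32, which was not called. Of 21 serine, glycine, proline and one-carbon genes, 2 were higher and 1 was lower with piericidin (all genes 1.87% and 2.43%), with a median of -0.01. None was called higher when any library was left out. Against untreated cells, 1 was higher and 10 were lower with piericidin, where 5.62% and 7.93% of all genes were. With 3-NPA, none was higher and 5 were lower, where 1.35% and 1.87% were. Amino acid transporters followed the ATF4 list, sharing Slc1a4, Slc1a5 and Slc7a5 with it. Of 17 transporters, 4 were higher with piericidin and none lower, beside 1.87% of all genes called higher. This count was 1 without piericidin 3 and 2 without 3-NPA 2 or 3-NPA 3.

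Of 20 cytosolic aminoacyl-tRNA synthetases, which charge transfer RNAs with amino acids, 5 were higher with piericidin and none lower, with a median of 0.08. Over all genes, 1.87% were called higher with piericidin than with 3-NPA. Iars, for isoleucine, had 212, 188 and 204 CPM with piericidin and 157, 120 and 157 CPM with 3-NPA, a log2 difference of 0.49 ± 0.11 that was not called without 3-NPA 2 (adjusted p = 0.067). Lars, for leucine, differed by 0.50 ± 0.11 and was not called without piericidin 3 (adjusted p = 0.070). The count for the list was 2 without piericidin 1, piericidin 3 or 3-NPA 3 and 3 without 3-NPA 2. Against untreated cells, none of the list was higher and 5 were lower with piericidin, with a median of -0.24 and a background of 7.93% of all genes called lower. With 3-NPA, too, none was higher and 5 were lower, with a median of -0.28 and a background of 1.87%. Among single members, Iars changed by -0.39 with 3-NPA and 0.10 with piericidin, and Lars by -0.50 with 3-NPA and by -0.00 with piericidin.

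Stretches from 3 of the ATF4 list are shown because its members are known to carry a composite C/EBP and ATF element, the CARE. The element was searched as TGATGNAA on both strands of the same 300-base RefSeq windows, and 3.97% of all windows, counted singly, held it. Matches per gene were counted, and the printed window was chosen, as for the G2/M genes. Of the 9 members higher with piericidin, 7 had a window and 4 of these held a match (Asns, Pck2, Pycr1 and Slc1a4); of the 26 tested members with a window, 8 did. Among the 5 tRNA synthetases higher with piericidin, 3 had a window and 2 (Aars and Iars) held a match. Of the 12 tested synthetases with a window, whether called or not, 5 did. The first base of the match, in capitals, lies 23 bases before the start of Asns, 4 before that of Slc1a4 and 103 before that of Pycr1. In Slc1a4 the match is read on the opposite strand. The S phase list was searched in the same windows for the E2F element, written as TTCCCGC or TTTCCCG, which 6.79% of all windows held. It was found in 2 of the 10 S phase genes lower with piericidin. Of the 28 tested S phase genes with a window, 12 held it.

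Asns, chr6:7693200-7693459, minus strand: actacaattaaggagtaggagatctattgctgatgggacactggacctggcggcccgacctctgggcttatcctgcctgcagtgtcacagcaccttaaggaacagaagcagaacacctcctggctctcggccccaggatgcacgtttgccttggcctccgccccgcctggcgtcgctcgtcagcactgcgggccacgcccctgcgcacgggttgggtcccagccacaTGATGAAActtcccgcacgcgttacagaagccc

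Slc1a4, chr11:20332704-20332963, minus strand: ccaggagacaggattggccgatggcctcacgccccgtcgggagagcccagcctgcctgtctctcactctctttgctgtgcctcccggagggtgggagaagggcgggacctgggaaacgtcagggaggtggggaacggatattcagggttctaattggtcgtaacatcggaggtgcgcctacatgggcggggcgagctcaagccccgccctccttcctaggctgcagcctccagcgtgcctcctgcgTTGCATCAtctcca

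Pycr1, chr11:120643739-120643998, minus strand: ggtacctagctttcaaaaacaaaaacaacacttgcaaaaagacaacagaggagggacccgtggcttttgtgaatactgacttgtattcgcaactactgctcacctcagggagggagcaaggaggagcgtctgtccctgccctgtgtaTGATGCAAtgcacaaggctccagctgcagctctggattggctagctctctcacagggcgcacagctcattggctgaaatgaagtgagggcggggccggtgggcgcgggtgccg

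The arrestin-domain genes Txnip and Arrdc3 differed in opposite directions. Txnip responds to glucose through the MondoA factor and restrains glucose uptake, and Arrdc3 restrains receptor signalling. Txnip (chr3:96557957-96561883, mm10) had 135, 133 and 141 CPM with piericidin, 271, 392 and 327 CPM with 3-NPA and 213, 267 and 219 CPM in untreated cells. The untreated libraries lay between the inhibitors without overlap, and piericidin and 3-NPA differed by -1.26 ± 0.11 (SE, edgeR adjusted p = 1.40e-10). Arrdc3 (chr13:80883384-80896035, mm10) had 34.9, 44.2 and 35.9 CPM with piericidin, 12.4, 8.5 and 8.71 CPM with 3-NPA and 16.4, 20.4 and 14.8 CPM in untreated cells. Here too the untreated libraries lay between, but in the reverse order, with a log2 difference of 1.97 ± 0.27 (edgeR adjusted p = 4.45e-06). The other 6 tested genes of their list were not called by edgeR. DESeq2 called 1 of the 8 genes higher and 3 lower with piericidin. The RefSeq windows of Txnip and Arrdc3 did not hold the E box CACGTG, which 7.15% of all windows held. Of the 7 tested genes of the list with a window, 2 held it. Only the exact letters CACGTG were searched, so any other form of the element would be missed, and MondoA binding was not tested.

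**Figure D4:**
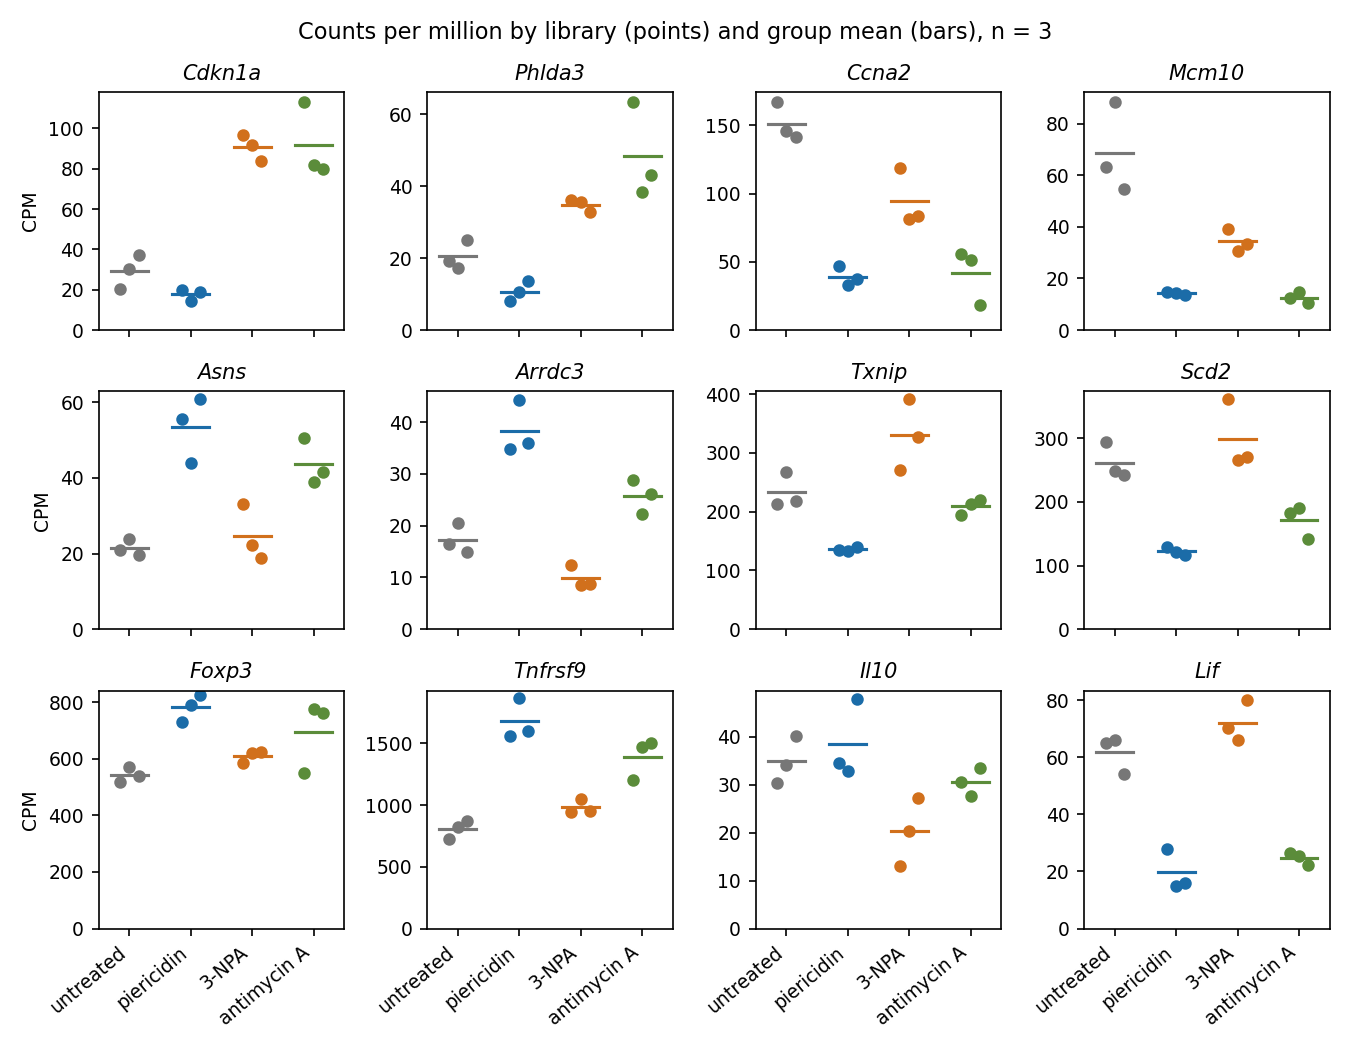
CPM of each library (points) and group mean (bars) for 12 genes in untreated, piericidin, 3-NPA and antimycin A cells, with 3 libraries each and axes that start at 0. Cdkn1a and Txnip are lower in every piericidin library than in every 3-NPA library, and Asns, Arrdc3 and Tnfrsf9 are higher.

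Calls in central carbon metabolism went in both directions. Of 29 genes of the tricarboxylic acid cycle and pyruvate entry, 1 was higher and 2 were lower with piericidin, or 10.3% beside 4.29% over all genes. Ogdh, a subunit of the 2-oxoglutarate dehydrogenase complex of the cycle, had 258, 265 and 279 CPM with piericidin and 214, 171 and 187 CPM with 3-NPA, while untreated cells had 303, 286 and 281 CPM. All 3-NPA libraries lay below the rest, and the inhibitors differed by 0.50 ± 0.10 on the log2 scale. Me2, the mitochondrial malic enzyme, was lower with piericidin by 0.63 on the log2 scale. Scd2, a fatty acid desaturase, had 129, 122 and 117 CPM with piericidin and 361, 265 and 270 CPM with 3-NPA. The groups did not overlap, and the log2 difference was -1.27 ± 0.12 (edgeR adjusted p = 5.08e-10). It was 1 of 2 genes (6.45%) called among 31 of fatty acid metabolism, both lower with piericidin. The other was Fasn, fatty acid synthase (-0.33). Of the list, 1 was called without piericidin 2, piericidin 3, 3-NPA 1 or 3-NPA 3.

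Of 25 genes of glycolysis, 2 were higher and 1 was lower with piericidin, or 12.0%, and all 3 calls were lost without some library. Aldoa and Pfkp, an aldolase and a phosphofructokinase, were higher with piericidin by log2 differences of 0.30 and 0.38, with adjusted p up to 0.096 (without piericidin 1, piericidin 2, 3-NPA 1 or 3-NPA 2) and 0.19 (without piericidin 1, 3-NPA 1 or 3-NPA 3). Pfkm was lower by 0.86 on the log2 scale, with adjusted p up to 0.14 (without piericidin 2, piericidin 3, 3-NPA 1 or 3-NPA 3). Prps1, which makes the ribose donor for nucleotides, was the 1 gene called of 9 of the pentose phosphate pathway, at -0.69 ± 0.15. Of 25 genes linked to hypoxia, 1 was higher and 1 lower with piericidin, or 8% beside 4.29% over all genes. Kdm3a, a histone demethylase, differed by 0.52 (adjusted p up to 0.098, lost without piericidin 1, piericidin 2 or 3-NPA 1), and Mif, a cytokine, by -0.48 (adjusted p up to 0.28, lost without piericidin 2, piericidin 3, 3-NPA 1 or 3-NPA 2). Hif1a differed by 0.18, Slc2a1 by 0.44 and Bnip3 by 0.99, and these were not called. Of 31 genes of the oxidative stress factor NRF2 and antioxidant defence, 2 (6.45%, all genes 4.29%) were lower with piericidin and none higher. They were Gpx1, a glutathione peroxidase, at -0.43 (adjusted p up to 0.15, lost without piericidin 2, 3-NPA 1 or 3-NPA 3) and Txn1, thioredoxin, at -0.39 (adjusted p up to 0.11, lost without piericidin 2, piericidin 3 or 3-NPA 1). Hmox1 (0.27) and Nqo1 (0.84) were not called. No gene of cholesterol synthesis (0 of 24) or of the endoplasmic reticulum stress response (0 of 24) was called by edgeR; 2 and 3 had an unadjusted p under 0.05, and DESeq2 called 1 and 0.

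Genes of the Treg programme differed in parts. Foxp3 had 730, 789 and 825 CPM with piericidin and 584, 618 and 622 CPM with 3-NPA, with untreated cells at 516, 570 and 539 CPM. The piericidin libraries lay above both other groups, with a log2 difference from 3-NPA of 0.38 ± 0.09 and an adjusted p of 0.013 that was 0.079 without piericidin 3 and 0.084 without 3-NPA 1. Il2ra, the alpha chain of the interleukin-2 receptor, and Ctla4, a checkpoint receptor, differed by 0.01 and 0.21 and were not called. Izumo1r, folate receptor 4, had 284, 337 and 277 CPM with piericidin and 463, 513 and 427 CPM with 3-NPA, and was lower in every piericidin library (-0.63 ± 0.09, edgeR adjusted p = 1.56e-05). In the list of 25 lineage genes 1 was higher and 2 were lower with piericidin, or 12% beside 4.29% over all genes, with a median of 0.02. Without piericidin 3 or 3-NPA 1 none was higher and the median was below 0.

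Of 25 genes of suppressive function, 4 were higher with piericidin and 1 was lower, with a median of 0.17. Over all genes, 1.87% were called higher and 2.43% lower. Tnfrsf9 (chr4:150914562-150946102, mm10), the activation receptor 4-1BB, had 1564, 1872 and 1600 CPM with piericidin, 942, 1052 and 953 CPM with 3-NPA and 729, 824 and 870 CPM in untreated cells. The piericidin libraries lay above all others of these groups, and the log2 difference from 3-NPA was 0.79 ± 0.09 (edgeR adjusted p = 3.48e-08). Il10, the suppressive cytokine, had 34.5, 32.9 and 47.9 CPM with piericidin, 13.1, 20.3 and 27.3 CPM with 3-NPA and 30.3, 34.2 and 40.2 CPM in untreated cells. Here the 3-NPA libraries lay below the rest, with a log2 difference of 0.94 ± 0.24 and an adjusted p of 0.15 without either piericidin 3 or 3-NPA 1. Itgb8, which activates TGF-beta, was higher with piericidin by 0.62 ± 0.14 (adjusted p = 0.065 without 3-NPA 1), and so was Gzmb, granzyme B, by 0.70, named after its value was seen. Ebi3, a subunit of interleukin-35, was lower by 0.90 on the log2 scale, a call lost without piericidin 1, piericidin 2, 3-NPA 1 or 3-NPA 2 (adjusted p up to 0.14). The count of 4 was 2 without piericidin 3 or 3-NPA 1.

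Immediate early genes of T cell receptor signalling split, with 3 of 26 higher and 2 lower with piericidin, beside 1.87% and 2.43% of all genes. Tnfaip3, a brake on NF-kB, was higher by 0.51 ± 0.11, and Nr4a3, an orphan nuclear receptor induced by the receptor, was lower by 0.56 on the log2 scale. Fosl2, an AP-1 subunit, was higher by 0.60 (adjusted p = 0.057 without piericidin 3) and Jun lower by 0.80 (adjusted p up to 0.092 without piericidin 1 or 3-NPA 2). The count of 3 was 2 without piericidin 1, piericidin 2, piericidin 3 or 3-NPA 1, and the count of 2 was 1 without piericidin 1 or 3-NPA 2.

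Some genes were named only for being in the 15 largest rises or falls. That choice took only genes already called, without overlap between the inhibitors and at or above a set level. Separation of piericidin from 3-NPA was therefore a condition and not a finding for them. The genes shown here kept their call without each library, but Alg12, Ctse, Cyp1a1, Gtdc1, Serpine2 and Plxnb2, chosen by the same rule, did not. Lif, a cytokine of the interleukin-6 family, had 28.0, 15 and 16.0 CPM with piericidin and 70.1, 66.1 and 80.1 CPM with 3-NPA. Untreated cells had 65.1, 66.0 and 54.0 CPM. The piericidin libraries lay below all others of these groups, at -1.86 ± 0.21 from 3-NPA (edgeR adjusted p = 5.30e-08). Igfbp4, which binds insulin-like growth factors, was likewise lowest with piericidin, with 27.2, 17.5 and 17.5 CPM, 74.6, 66.1 and 59.2 CPM, and 80.9, 56.4 and 78.6 CPM in the same 3 groups, and differed by -1.67 ± 0.22. Psrc1, a spindle protein, differed by -1.77 ± 0.35, with 3-NPA above untreated cells. Gad1, the glutamate decarboxylase that makes GABA, had 21.1, 20.8 and 32.9 CPM with piericidin, 9.32, 7.76 and 4.06 CPM with 3-NPA and 28.7, 18.7 and 25.6 CPM in untreated cells. There 3-NPA lay below the rest, and the inhibitors differed by 1.85 ± 0.34. Pam, which amidates peptide hormones, and Errfi1, an inhibitor of the EGF receptor, were higher with piericidin by 1.83 ± 0.37 and 1.51 ± 0.34.

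**Figure D5:**
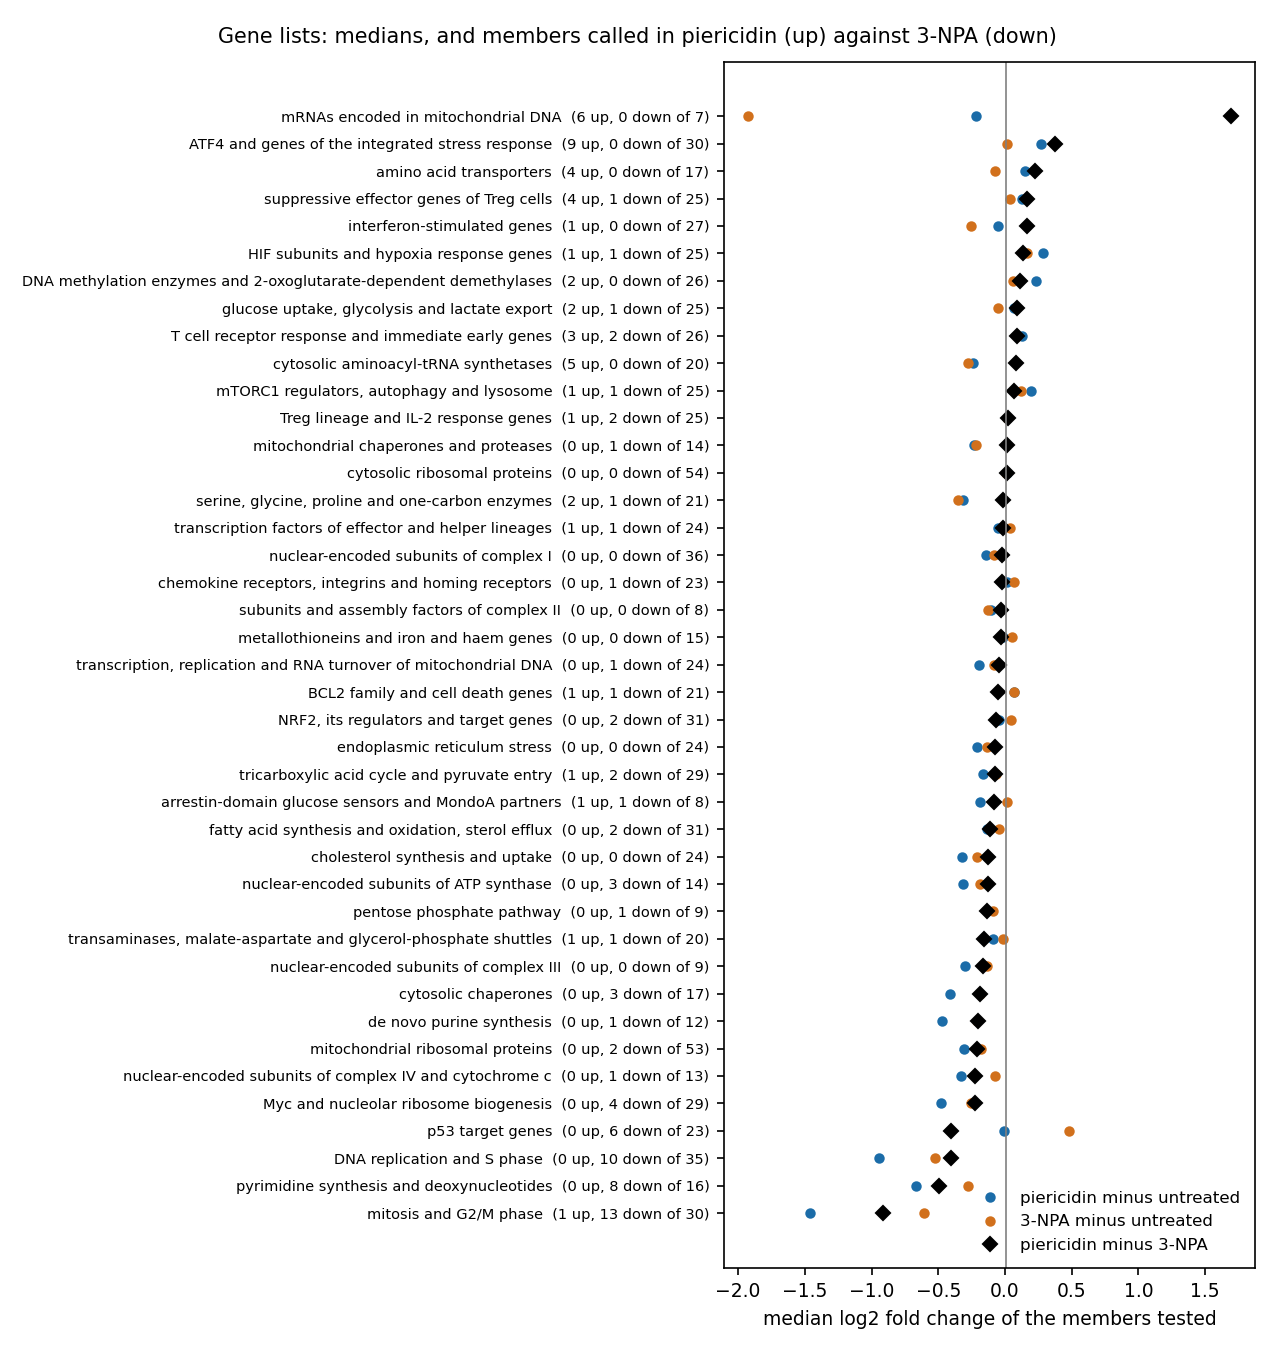
Median log2 fold change of the tested members of 41 gene lists for piericidin against 3-NPA (black), piericidin against untreated (blue) and 3-NPA against untreated (orange), with the members called up and down in the direct comparison beside each name; the grey line is the median over all genes tested. Mitochondrial mRNAs (1.69) and G2/M genes (-0.91) have the highest and the lowest median in the direct comparison.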

How the data were processed

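RNA was measured in 28 libraries of the series, of which the 12 treated in culture were fitted here. The authors deposited whole-number counts per gene, and the labels' protocols give poly(A) selection and a NEBNext Ultra library kit. The submitters' processing notes name bcl2fastq, TopHat, HTSeq, edgeR and mm10, and versions are not given in the sources used here. In the deposited tables, 11 columns of per-sample values matched no sample label and were not used. Counts were analysed in R 4.3.3 with edgeR 4.0.16: filterByExpr by group, TMM factors, 1 quasi-likelihood fit of the 12 libraries and Benjamini-Hochberg adjustment over all genes tested, checked on simulated data. CPM printed per library are counts divided by the library total, without TMM factors. The members and lists were chosen with earlier results of these data known. Named genes were the 15 largest rises and falls among called, non-overlapping genes whose level averaged 3 or more in log2 CPM, up to 4 members of each list by p, and a fixed set of genes; all measured mitochondrial genes, Fasn as a list member, Zmat3, Ccng1, Gzmb, Mdm2, Trp53 and Dhodh stand outside or beside that rule. Of 133 named genes, 103 matched a RefSeq promoter window. Same-numbered libraries of the 2 inhibitors had correlations of their deviations of 0.0350 to 0.0443, under the 0.1 set for pairing, so numbers were not used as pairs. Alternatives were DESeq2 1.42.0, other filters and scaling, a minimum fold, fewer groups, a replicate block and leaving out each library; leaving out mitochondrial genes, or 2 libraries together, was chosen after seeing the data. One gene of the fixed set and 1 cell type marker are not reported here.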

Additional observations from a re-analysis of the deposited data

How the results depend on the processing

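The 502 genes called between piericidin and 3-NPA became 820 with DESeq2, which shared 481 of them, and 23 when the fold had to exceed 1.5; leaving out 1 library gave 230 to 409, and leaving out piericidin 1 and 3-NPA 2 together gave 396. Piericidin against untreated, with 1584 calls, gave 82 with the minimum fold and 1009 to 1421 without 1 library. 3-NPA against untreated, with 377 calls, gave 672 with DESeq2, 9 with the minimum fold and 130 to 295 without 1 library. Fewer libraries leave fewer degrees of freedom; for the other settings the cause was not tested. With the replicate number as a block the counts were 624, 1733 and 481, and 501 of the 502 calls were shared; each library correlated best with its own number, a hint from the data and not the design. Among the named genes, the direction turned for these, none of them called: Il2ra (-0.0071 with a minimum of 1 CPM, up to 0.052 without piericidin 2, -0.044 without piericidin 1, -0.00045 without piericidin 3, -0.071 without 3-NPA 2, -0.10 without both libraries), Sdhd (-0.018 without piericidin 2, up to 0.20 without piericidin 3), Trib3 (-0.21 without piericidin 3, up to 0.26 without piericidin 2, -0.036 without 3-NPA 2) and Uqcrfs1 (0.078 without both). Of 105 called genes among those named, 42 held without each library and 16 under every alternative run. Medians of lists near 0 also changed sign without single libraries, from -0.092 to 0.036 for complex I, -0.12 to 0.064 for complex II, -0.068 to 0.073 for cytosolic ribosomal proteins and -0.029 to 0.091 for Treg lineage genes. Genes with few counts have wide errors at this depth.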

Other observations

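The antimycin A libraries, which enter no comparison here, had a ratio of mitochondrial ribosomal RNA to mRNA counts of 1.54, 1.15 and 1.13, beside 1.06 to 1.35 with 3-NPA and 0.138 to 0.162 with piericidin. Cdkn1a stood at 113, 81.7 and 79.9 CPM with antimycin A, beside 83.6 to 96.7 CPM with 3-NPA. Asns stood at 50.4, 39.0 and 41.6 CPM and Arrdc3 at 28.8, 22.3 and 26.1 CPM, above every 3-NPA library. These are levels only, with no test.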
